A study of Rattus norvegicus with 8 samples.

Results

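The genes described here make cholesterol and fatty acids. They are 31 genes of the mevalonate pathway, sterol synthesis, fatty acid synthesis and the SREBP regulators, taken by symbol from the 29884 genes of the deposited count table. The list is not the whole pathway. All 31 had a row, and all 31 passed the filter on low counts, as did 16117 genes in all. The lowest count of any of them in a library was 215 (Hsd17b7), against 3 counts as the limit that a count of 0 allows, so depth did not keep any from being measured.

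The tissue was the cervix of wild-type Sprague-Dawley rats in pregnancy. Animals were injected into the peritoneum on gestational day 17, either with lipopolysaccharide (LPS, the bacterial endotoxin) at 100 µg/kg or with the same volume of phosphate-buffered saline (PBS), and tissue was taken 12 hours later. Each group held 4 libraries, which the design text calls biological replicates, and the comparison asks how a stimulus used to model preterm birth changes the transcripts of the cervix. The age of the animals, and whether animals were pooled, is not given in the sources used here. PBS replicate 1 and LPS replicate 2 stood apart from the other 6 libraries on principal component 2. Leaving out the pair gave 1 of the 31 genes higher and 4 lower, as did all 8 libraries, with Acly called in place of Idi1. Of all genes tested, 12.4% were called without the pair and 16.9% with all 8 libraries. The tissue was bulk, so fewer cells of a type and less RNA per cell cannot be told apart.

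Cholesterol is built from acetyl-CoA by way of mevalonate, isopentenyl diphosphate and squalene, and fatty acids are built from the same precursor by Acaca and Fasn. Both routes are controlled by the SREBP transcription factors, which are held in the endoplasmic reticulum by Scap and the Insig proteins when sterols are plentiful and are released by proteolysis when they are scarce. In epithelium the products serve membranes, the lipid barrier and, as isoprenoids, the anchoring of proteins. Macrophages are known to change both routes when they meet LPS.

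12 hours after LPS the genes of these routes did not move together. Of the 31, Lss rose, and Pmvk, Idi1, Srebf1 and Acaca fell, at an adjusted p under 0.05 in edgeR's quasi-likelihood test, and 26 were not called. That is 16.1% called, where 16.9% of all genes tested were called. By direction, 1 of 31 was higher, against 9.49% of all genes, and 4 of 31 were lower, against 7.45%. Without PBS replicate 2, 1 was higher and 1 lower, and 8.98% of all genes were called. Dropping PBS replicate 4 or LPS replicate 4 also left 1 lower, with 13.2% and 14.5% of all genes called. Dropping LPS replicate 3 left 2 lower (11.5% of all genes called), and dropping PBS replicate 1 gave 2 higher (15.8%). The median log2 fold change (LPS against PBS) was 0.01 over the 31 and 0.01 over all genes tested, with values of the 31 from -0.99 to 1.01. At an unadjusted p under 0.05 there were 9 of 31 (29.0%), beside 32.6% of all genes. The counts thus lay near the background, and nothing in them sets these genes apart from the rest of the table.

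**Figure D1:**
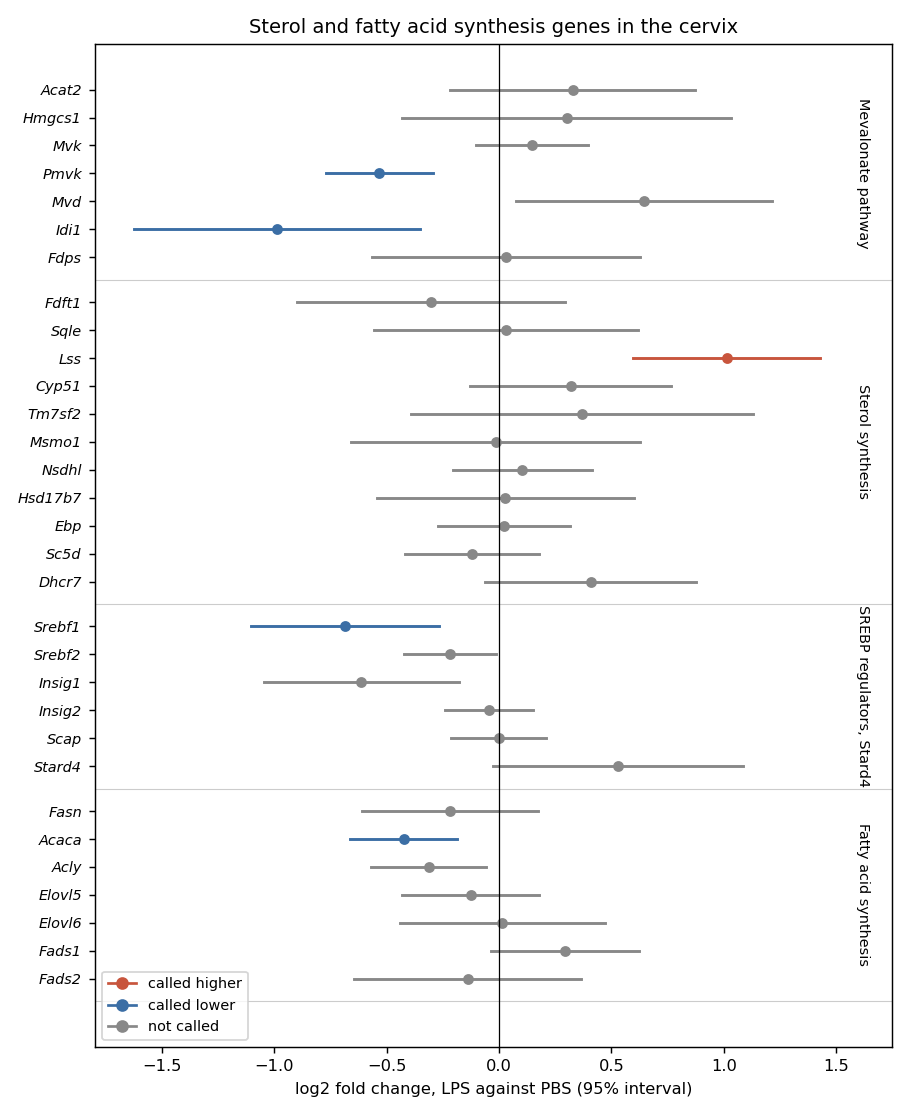
Log2 fold change of the 31 genes, LPS against PBS, with its 95% interval from the quasi-likelihood fit (n = 4 libraries per group), grouped by role. Lss (1.01) lies alone on the right among called genes, and Idi1 (-0.99), Srebf1 (-0.68), Pmvk (-0.53) and Acaca (-0.42) on the left, while the intervals of most grey genes span 0.

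The 2 calls within the mevalonate pathway were both downward, and lay on either side of a decarboxylase that was not called. Of its 7 genes, 5 had a log2 fold change above 0. Among all genes tested 7.45% were called lower. Pmvk, phosphomevalonate kinase, stood at 37.8, 44.2, 35.8 and 35.8 CPM (a library's counts per 1e6, with TMM scaling) in PBS replicates 1 to 4 and at 30.2, 24.1, 24.6 and 27.3 CPM in LPS replicates 1 to 4. Every LPS library was below every PBS library. The means were 38.4 ± 3.95 and 26.6 ± 2.84 CPM (SD, n = 4 in each group), and the log2 fold change was -0.53 (SE 0.10, edgeR adjusted p = 0.0113). It was called under each of 17 alternative settings.

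Idi1, which isomerises isopentenyl diphosphate to its reactive partner, was the member with the largest fall. Its level was 578, 601, 363 and 716 CPM in PBS and 396, 340.1, 199.6 and 203 CPM in LPS. PBS replicate 3 lay below LPS replicate 1, so the groups overlapped, and LPS replicates 3 and 4 were the lowest. The mean went from 565 ± 147 to 285 ± 98.8 CPM, which is -0.99 as a log2 fold change (SE 0.28, edgeR adjusted p = 0.0438). The call held in 8 of 17 settings. Leaving out any library but PBS replicate 3 and LPS replicate 1 ended it, with an adjusted p of up to 0.104. In RefSeq's GRCr8 annotation the Idi1 gene overlaps Wdr37, whose log2 fold change was -0.43 (adjusted p = 0.0868), and without a known strand setting their shared reads cannot be told apart.

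The enzymes that lead up to and surround these steps were not called, and libraries of a group differed more than the groups did. Hmgcs1, which forms HMG-CoA, had 142, 60.6, 74.2 and 103 CPM in PBS and 101, 112, 179.9 and 74.9 CPM in LPS. The groups overlapped, with LPS replicate 3 above every PBS library, and the log2 fold change of 0.30 (adjusted p = 0.561) has a 95% interval from -0.43 to 1.03. Without 1 library it moved between 0.01 (without LPS replicate 3) and 0.56 (without PBS replicate 1).

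Mvd, mevalonate diphosphate decarboxylase, the step between Pmvk and Idi1, went the other way. It held 16.6, 9.06, 11.1 and 15.9 CPM in PBS and 19.6, 24.9, 24.4 and 13.4 CPM in LPS. In LPS 3 of 4 libraries were above every PBS library, and LPS replicate 4 was not. Its log2 fold change was 0.65 (SE 0.25, adjusted p = 0.113), so it did not pass. Acat2, which condenses acetyl-CoA, had a value of 0.33 (adjusted p = 0.381), and mevalonate kinase, Mvk, of 0.15 (adjusted p = 0.394). Fdps, which makes farnesyl diphosphate, ranged from 68.2 to 149 CPM in PBS and from 74.0 to 145 CPM in LPS, with a log2 fold change of 0.03 (adjusted p = 0.952).

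In sterol synthesis proper, from squalene to cholesterol, 1 of 11 enzymes rose and none fell in edgeR's test. Over all genes tested, edgeR called 9.49% higher and 7.45% lower. For the 11 enzymes the counts were also 1 and 0 with an unadjusted p under 0.05, as they were with DESeq2 and limma-voom. Of all genes, 32.6% passed that unadjusted limit, 26.0% were called by DESeq2 and 16.0% by limma-voom, in either direction. The enzyme that rose was Lss, lanosterol synthase, which closes the rings of the sterol skeleton. Its level was 48.1, 54.5, 38.6 and 41.7 CPM in PBS and 71.8, 84.1, 126 and 87.3 CPM in LPS. All 4 LPS libraries lay above all 4 PBS libraries, LPS replicate 3 farthest. The mean went from 45.7 ± 7.07 to 92.3 ± 23.4 CPM (SD, n = 4 in each group), a ratio of 2.02. The fitted log2 fold change was 1.01 (SE 0.18, edgeR adjusted p = 0.00806). The call held in all 17 settings, with values from 0.83 to 1.12.

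The enzymes on both sides of Lss were not called, and whether their changes differ from that of Lss was not tested. Sqle, squalene epoxidase, which makes its substrate, had 49.97, 26.3, 27.9 and 32.6 CPM in PBS and 35.4, 36.0, 46.2 and 22.3 CPM in LPS. PBS replicate 1 was the highest of the 8 and LPS replicate 4 the lowest, and the log2 fold change was 0.03 (95% interval -0.55 to 0.62, adjusted p = 0.948). Cyp51, the demethylase that acts on lanosterol, had a log2 fold change of 0.32 (95% interval -0.13 to 0.77, adjusted p = 0.298). Fdft1, squalene synthase, had a value of -0.30 (adjusted p = 0.462).

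Msmo1, the methyl oxidase of the later steps, had 90.0, 46.1, 50.5 and 69.4 CPM in PBS and 57.4, 74.4, 84.1 and 37.6 CPM in LPS, groups that overlapped throughout (log2 fold change -0.01, adjusted p = 0.978). Dhcr7, which acts in the closing steps to cholesterol, held 12.2 to 21.3 CPM in PBS and 16.8 to 25.4 CPM in LPS, with a log2 fold change of 0.41 (adjusted p = 0.21). Tm7sf2, a sterol reductase, reached 16.6 CPM in LPS replicate 2 and lay between 5.45 and 8.99 CPM in the other LPS libraries, against 6.19 to 10.2 CPM in PBS. Its value of 0.37 (adjusted p = 0.487) became -0.03 without that library. The other 4, Nsdhl, Hsd17b7, Ebp and Sc5d, had log2 fold changes between -0.12 and 0.10 and adjusted p of 0.569 or more.

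**Figure D2:**
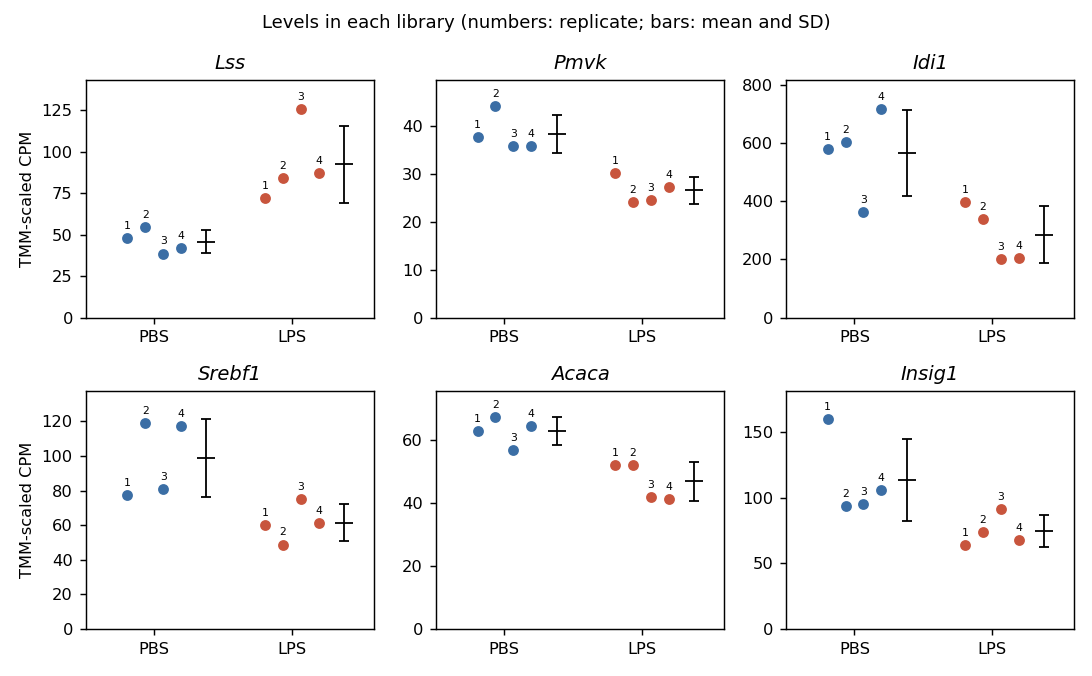
Level of the 5 called genes and of Insig1, which was not called, in each library (TMM-scaled CPM on linear axes from 0; points are libraries with their replicate number, bars the mean and SD of 4). The groups are apart for Lss, Pmvk, Srebf1, Acaca and Insig1, and overlap for Idi1.

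The promoters of Lss and Idi1 are shown because these genes of 1 pathway were called in opposite directions. RefSeq's GRCr8 table, which runs from 250 bases before to 50 bases after the start of a gene, held a window for 24 of the 31 genes. The Lss window is chr20:12118181-12118480 and the Idi1 window is chr17:66547475-66547774, both on the minus strand. Capitals mark the NF-Y box CCAAT on either strand, which reads ATTGG where it lies on the opposite strand. By the rule for printed promoters Lss would stand alone, and Idi1 was added after its values were seen.
Lss: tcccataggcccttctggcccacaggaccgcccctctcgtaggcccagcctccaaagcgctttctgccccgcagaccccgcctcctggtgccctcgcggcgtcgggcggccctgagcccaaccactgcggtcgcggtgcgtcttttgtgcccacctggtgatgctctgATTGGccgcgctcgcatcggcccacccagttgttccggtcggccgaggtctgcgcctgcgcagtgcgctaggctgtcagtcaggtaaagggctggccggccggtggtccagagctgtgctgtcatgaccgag
Idi1: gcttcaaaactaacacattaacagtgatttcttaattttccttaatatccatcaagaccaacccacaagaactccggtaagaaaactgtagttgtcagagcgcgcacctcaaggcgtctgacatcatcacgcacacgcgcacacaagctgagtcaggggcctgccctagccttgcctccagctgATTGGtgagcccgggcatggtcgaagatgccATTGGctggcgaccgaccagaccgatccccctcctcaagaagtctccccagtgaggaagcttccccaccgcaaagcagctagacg

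The Lss window holds 1 such box, whose first printed base is 82 bases before the start, and the Idi1 window holds 2, at 66 and 35 bases before it. A CCAAT box lay in the windows of 19 of the 24 genes (79.2%), beside 38.8% of the tested genes with a window and 39.6% of all genes with one. TCACNCCAC, a form of the sterol response element bound by the SREBP proteins, was in 0 of the 24 and in 1.18% of the tested genes' windows. The E box CACGTG was in 4 of 24 (16.7%), beside 9.40% of the tested genes. All were searched on both strands, and a match is a run of letters, not a measured site.

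Among the regulators, Srebf1 fell. It encodes SREBP-1, the form known for fatty acid synthesis, and held 77.6, 119, 80.6 and 117.5 CPM in PBS and 60.05, 48.8, 75.3 and 61.4 CPM in LPS. The PBS libraries formed a high and a low pair, and the highest LPS library, replicate 3, came within a few CPM of the lower pair without reaching it. The means were 98.7 ± 22.6 and 61.4 ± 10.9 CPM, and the log2 fold change was -0.68 (SE 0.18, edgeR adjusted p = 0.0366). Leaving out any library but PBS replicate 1, PBS replicate 3 and LPS replicate 3 ended the call (adjusted p of up to 0.102), as did the replicate number as a block (0.0956), and over the libraries left out the log2 fold change stayed between -0.80 and -0.58. Srebf1 overlaps Rai1 in the GRCr8 annotation, which had a log2 fold change of -0.38 (adjusted p = 0.0571). RefSeq gives Srebf1 2 windows, and gene counts do not separate transcripts from different starts.

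Insig1, which retains the SREBP complex and is itself a classical SREBP target, had no overlap between groups but did not pass. Its level was 160.0, 93.9, 95.4 and 106 CPM in PBS and 64.3, 73.6, 91.8 and 67.8 CPM in LPS. PBS replicate 1 stood above the rest, and the PBS libraries 2 and 3 lay just above LPS replicate 3. The log2 fold change was -0.61 (SE 0.19, adjusted p = 0.0597), and -0.41 without PBS replicate 1. DESeq2 and the quality-weighted limma-voom fit called it (adjusted p of 0.0161 and 0.0467).

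Srebf2, which encodes SREBP-2, the form known for cholesterol synthesis, had 178 ± 19.0 CPM in PBS and 153 ± 6.36 CPM in LPS (log2 fold change -0.22, adjusted p = 0.133). Scap, the escort protein, was at 100.4 ± 11.04 and 100.2 ± 5.69 CPM, and the 95% interval of its log2 fold change ran from -0.21 to 0.21. That of Insig2, the second Insig protein, ran from -0.24 to 0.15. Stard4, a carrier of cholesterol in the cytosol, stood at 19.8, 11.5, 13.3 and 9.44 CPM in PBS and 19.0, 21.5, 23.5 and 13.9 CPM in LPS. Its log2 fold change was 0.53 (adjusted p = 0.173), and without PBS replicate 1, the highest PBS library, it was 0.77 and passed (adjusted p = 0.0419).

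Of the 7 genes of fatty acid synthesis, elongation and desaturation, 1 fell and none rose in edgeR's test. The shares among all genes tested were 7.45% lower and 9.49% higher. At an unadjusted p under 0.05, 2 of the 7 were lower and 0 higher, where 32.6% of all genes passed in either direction. DESeq2 likewise called 2 lower and 0 higher, and 26.0% of all genes in either direction. The gene that fell was Acaca, acetyl-CoA carboxylase, which commits acetyl-CoA to fatty acids. It held 62.9, 67.4, 56.9 and 64.6 CPM in PBS and 52.2, 52.2, 41.8 and 41.4 CPM in LPS. The groups did not overlap, and LPS replicates 3 and 4 were the lowest. The means were 63.0 ± 4.43 and 46.9 ± 6.12 CPM, and the log2 fold change was -0.42 (SE 0.10, edgeR adjusted p = 0.0265). The call ended when PBS replicate 2, PBS replicate 4, LPS replicate 3 or LPS replicate 4 was dropped (adjusted p of up to 0.0743), with values from -0.49 to -0.37 over the libraries left out. In the GRCr8 annotation Acaca overlaps 3 other gene models, 1 of them protein-coding, and shared reads cannot be told apart there either.

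Acly, which supplies acetyl-CoA from citrate, held 235, 303, 251 and 287 CPM in PBS and 208, 251, 207 and 199 CPM in LPS. LPS replicate 2 lay among the PBS libraries and the other 3 below them. Its log2 fold change was -0.31 (SE 0.11, adjusted p = 0.0918), and it passed with DESeq2 (adjusted p = 0.0343) and, in edgeR, once LPS replicate 2 was dropped (0.0494). Fasn, the synthase itself, had 205, 153, 148 and 205 CPM in PBS and 161, 192, 140.4 and 119 CPM in LPS, groups that overlapped (log2 fold change -0.22, 95% interval -0.61 to 0.17, adjusted p = 0.42).

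The elongases Elovl5 and Elovl6 had values of -0.13 (adjusted p = 0.557) and 0.01 (adjusted p = 0.97). The desaturases of polyunsaturated fatty acids differed in sign without passing. Fads1, the delta-5 enzyme, had 0.29 (adjusted p = 0.197) and Fads2, the delta-6 enzyme, -0.14 (adjusted p = 0.707), with 59.8 to 122 CPM of Fads2 in LPS.

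Groups without overlap were 5 of the 31, with 1 above (Lss) and 4 below (Pmvk, Srebf1, Insig1 and Acaca), or 16.1%. Among all genes tested 12.9% had every LPS library above every PBS library and 10.5% every one below, 23.4% together. In 27 of the 31 genes (87.1%) the ratio of the highest to the lowest library within a group exceeded the ratio of the group means, and so it did in 85.6% of all genes tested.

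The spread within groups ran in the same libraries through much of the route to cholesterol. Of the 18 mevalonate and sterol enzymes, 13 were highest in PBS replicate 1 among the PBS libraries, where 30.1% of all genes tested were, and 11 were lowest in PBS replicate 3 (21.4% of all genes). Among the LPS libraries 11 of the 18 were highest in replicate 3 (28.1% of all genes) and 14 were lowest in replicate 4 (24.0% of all genes). The median of the 11 sterol enzymes, as log2(CPM + 0.5) minus the PBS mean, was 0.45, -0.14, -0.24 and 0.09 in PBS replicates 1 to 4 and 0.08, 0.24, 0.37 and -0.33 in LPS replicates 1 to 4. PBS replicate 1 and LPS replicate 3 were thus alike in this measure, and the groups overlapped. This is a description of these libraries, chosen after the values were seen, and no test was made of it.

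By the same median, fatty acid genes ranked the PBS libraries as the sterol enzymes did, and the LPS libraries in another order. Their median was 0.18, -0.02, -0.05 and 0.04 in PBS and -0.13, 0.07, -0.37 and -0.36 in LPS. LPS replicate 3, the highest LPS library for most sterol enzymes, was thus the lowest here, though barely below LPS replicate 4. LPS replicate 2 was the highest of the LPS libraries for 5 of these 7 genes. The regulators with Stard4 had medians of -0.01, 0.02, -0.10 and 0.05 in PBS and of -0.14, -0.13, -0.17 and -0.15 in LPS. All 4 LPS libraries were below all 4 PBS libraries in this last measure, by a narrow gap between LPS replicate 2 and PBS replicate 3. Only 1 of its 6 genes was called, and their log2 fold changes ran from -0.68 to 0.53 (Stard4). These medians were not tested either.

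**Figure D3:**
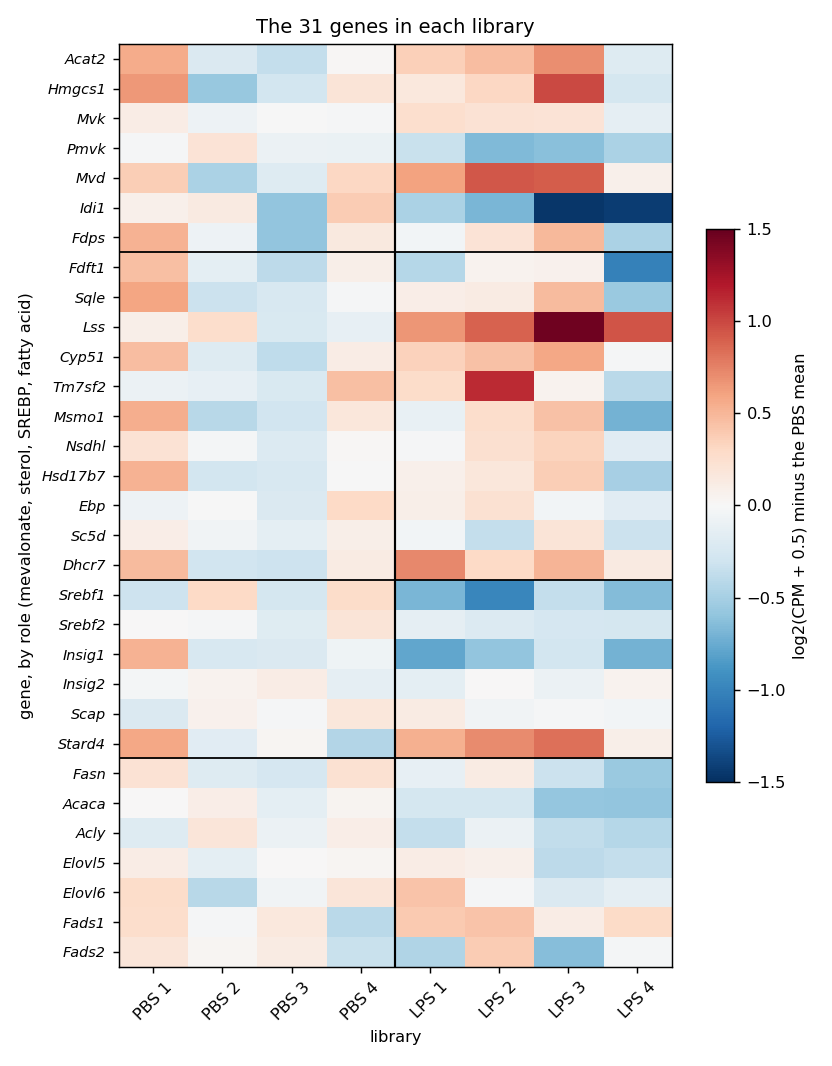
Each of the 31 genes (rows, by role) in each library (columns), as log2(CPM + 0.5) minus the mean of the 4 PBS libraries; red is above and blue below that mean, and colours are clipped at 1.5. Rows of sterol enzymes are mostly red in PBS replicate 1 and LPS replicate 3 and blue in LPS replicate 4, and Lss is red in all 4 LPS libraries.

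Markers of cell types moved between the groups beside these values. Called higher were 7 of 7 tested neutrophil markers (5 to 7 with 1 library left out, and 5 with limma-voom). Their summed level was 34.1 to 57.6 CPM in PBS and 410 to 1682 CPM in LPS, highest in LPS replicate 4. Also higher were 6 of 8 macrophage and monocyte markers (6 to 7 with 1 library left out) and 5 of 7 fibroblast markers (3 to 5). The macrophage and monocyte sum was 620 to 949 CPM in PBS and 1273 to 1918 CPM in LPS. Called lower were 4 of 5 tested red cell markers (0 to 4 with 1 library left out) and 3 of 7 tested markers of myelinating Schwann cells (2 to 3). The Schwann cell sum was 261 to 352 CPM in PBS and 158 to 207 CPM in LPS. Also lower were 2 of 7 tested squamous markers (1 to 2 with 1 library left out), 1 of 9 columnar markers (1 to 2), 1 of 6 endothelial markers (0 to 2) and 6 of 8 smooth muscle markers (0 to 8). Of 9 adipocyte markers edgeR called 0, with 1 at an unadjusted p under 0.05 and 1 called lower by DESeq2, and their summed level was 219 to 586 CPM in PBS and 243 to 365 CPM in LPS, highest in PBS replicate 1. Markers of epithelium and smooth muscle were present in both groups, with Krt8 at 1186 ± 196 CPM in PBS and 818 ± 161 CPM in LPS, and Myh11 at 1890 ± 685 and 820.3 ± 127 CPM. The summed squamous level was 4981 to 9239 CPM in PBS and 3170 to 4215 CPM in LPS, and the columnar sum 16760 to 27100 and 21510 to 22200 CPM. Most of the columnar sum was Muc5b, with means of 18412 CPM in PBS and 18762 CPM in LPS. Krt13, a part of the squamous sum, had means of 2197 and 94.9 CPM. Log2 fold changes were below 0 for 6 of 7 tested squamous markers (Krt13 lowest, -4.53) and 7 of 9 columnar ones. The squamous marker Ivl and the neutrophil marker Ngp were at or near 0 in both groups. The part of any cell type in the values of the 31 genes was not tested.

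Genes next to these routes gave further calls, from lists fixed with earlier results of these data known. For each list, the shares over all genes tested were 9.49% called higher and 7.45% called lower. Of 11 genes of SREBP cleavage and degradation in the endoplasmic reticulum, 1 rose and 2 fell. Mbtps1, the site-1 protease that makes the initial cut in SREBPs, fell from 238 ± 10.7 to 182 ± 23.7 CPM, which is -0.38 as a log2 fold change (adjusted p = 0.0366). Tmem41b, a lipid scramblase, rose by 0.32 on that scale (adjusted p = 0.0348). With 1 library left out the higher count ran from 0 to 1 and the lower from 0 to 1, and under the block both were 0. Mbtps1 was called in 10 and Tmem41b in 7 of the 17 settings, and with 1 library left out their log2 fold changes ran from -0.46 to -0.32 and from 0.26 to 0.36. Of the 11 genes of the isoprenoid branches, edgeR, DESeq2 and limma-voom called 0. At an unadjusted p under 0.05 there were 3 lower and 0 higher, where 32.6% of all genes passed in either direction. Of 10 proliferation genes 1 rose, the replication helicase subunit Mcm2 (log2 fold change 0.50, adjusted p = 0.0172).

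Of 19 genes of sterol uptake, storage, transport and efflux, 4 rose and 0 fell in edgeR's test. The counts were 5 and 3 at an unadjusted p under 0.05, and 4 and 0 with DESeq2. Of all genes, 32.6% passed at that unadjusted p and 26.0% with DESeq2, in either direction. With 1 library left out the counts of this list ran from 3 to 5 higher and from 0 to 1 lower. Cyp7b1, which hydroxylates oxysterols, held 4.04, 3.44, 2.98 and 3.69 CPM in PBS and 23.3, 20.3, 68.6 and 16.7 CPM in LPS. Every LPS library was several times above every PBS library, LPS replicate 3 most, and the log2 fold change was 3.19 (SE 0.46, adjusted p = 0.00358), or 2.50 without that library. Nr1h3, the oxysterol receptor LXR-alpha, rose from 11.5 ± 3.17 to 24.0 ± 3.502 CPM, which is 1.06 as a log2 fold change (adjusted p = 0.0104). The others, named after their values were seen, were Cyp27a1, the sterol 27-hydroxylase (log2 fold change 0.58, adjusted p = 0.0131), and Lipa, the lysosomal lipase that frees cholesterol from its esters (0.41, adjusted p = 0.0284). Of the 19 genes, 13 had a log2 fold change above 0 and 6 below. Among those not called, the exporter Abca1 had 0.64 (adjusted p = 0.184) and Mylip had -0.47 (adjusted p = 0.143), both named after their values were seen.

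Other genes of fatty acid and lipid synthesis moved both ways, with 5 of 26 higher and 2 lower. Lpcat3, which puts polyunsaturated fatty acids into phospholipids, rose from 41.8 ± 4.77 to 73.3 ± 5.005 CPM, a gain of 0.81 on the log2 scale (adjusted p = 0.00154). Hacd2, a dehydratase of the elongation cycle, rose from 22.0 ± 0.921 to 33.7 ± 2.77 CPM, a gain of 0.61 (adjusted p = 0.00247). The remaining 5 were named after their values were seen. Dgat2, which forms triglyceride, rose by 0.91 on the log2 scale (adjusted p = 0.004), Hsd17b12, another enzyme of elongation, by 0.53 (adjusted p = 0.0193) and Acss2, which activates acetate, by 0.42 (adjusted p = 0.0462). Gpam, the acyltransferase that starts glycerolipid synthesis, fell by 0.45 (adjusted p = 0.0305) and Mid1ip1, an activator of acetyl-CoA carboxylase, by 0.30 (adjusted p = 0.0261). Without 1 library the counts ran from 3 to 5 higher and from 0 to 3 lower.

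Of the genes of fatty acid oxidation, 6 of 15 were higher and 0 lower in edgeR's test, where 9.49% of all genes tested were higher. The counts were 8 and 0 at an unadjusted p under 0.05, and 7 and 0 with DESeq2. Of all genes, 32.6% passed at that unadjusted p and 26.0% with DESeq2, in either direction. Hadha, the alpha subunit of the mitochondrial trifunctional protein, held 138, 138, 141 and 139.5 CPM in PBS and 223, 209, 205 and 214 CPM in LPS. The spread within groups was narrow and the groups far apart (log2 fold change 0.61, SE 0.06, adjusted p = 0.000955). Acaa2, the thiolase of the last step, rose from 35.0 ± 4.10 to 64.6 ± 8.21 CPM, a gain of 0.88 on the log2 scale (adjusted p = 0.00261). The other 4, named after their values were seen, were Cpt1b, Acads, Hadhb and Slc25a20. The count was 4 to 7 with 1 library left out and 2 with PBS replicate 1 and LPS replicate 2 both left out. Log2 fold changes were above 0 for 11 of the 15 and below 0 for 4, lowest for Ehhadh (-0.95, adjusted p = 0.234), named for its value. The summed level of the list was 1282 to 1591 CPM in PBS and 1170 to 1729 CPM in LPS, so the groups overlapped. Whether the shares of these lists differ from that of the 31 genes was not tested.

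**Figure D4:**
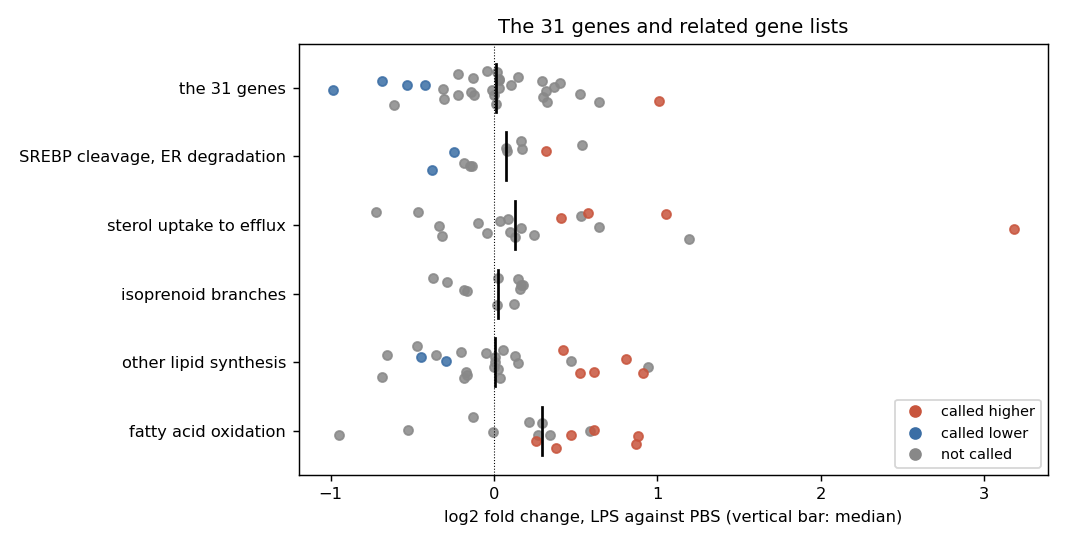
Log2 fold change, LPS against PBS, of each tested gene of the 31 and of 5 related lists; points are genes coloured by call and bars are medians. The medians are 0.01 for the 31 genes and 0.29 for fatty acid oxidation, and the point far to the right is Cyp7b1 (3.19).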

How the data were processed

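The authors deposited raw counts, whole numbers per gene symbol and library, per the values of the table. Per the submitters' processing notes, the build was mRatBN7.2 and the tools included HISAT2, HTSeq and fastp, beside R 3.2.0, without their roles. Neither the strand setting nor the gene annotation is given in the sources used here. Libraries held 33191039 to 40634384 counts, so that 3 counts were 0.0738 to 0.0904 CPM (counting error only). Columns were matched to samples by library name.

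Genes were filtered with filterByExpr, scaled by TMM and tested with edgeR 4.0.16 in R 4.3.3 (robust quasi-likelihood F test, Benjamini-Hochberg over 16117 genes, called at an adjusted p under 0.05). The SE is the size of the log2 fold change over the square root of F. Replicates are those of the labels and design text. Alternatives covered upper-quartile and RLE scaling, no filter, a filter of 1 CPM in 4 libraries, limma-voom (limma 3.58.1) plain and quality-weighted, DESeq2 1.42.0, each library left out, the replicate block and, added after seeing the data, both PBS replicate 1 and LPS replicate 2 left out, which stood apart on principal component 2 (16.3% of the variance, over the 500 genes that varied most). All 31 genes are named whatever their result, and of each related list the 2 called genes with the lowest adjusted p. A called gene of these lists is not reported by name here. The members, lists and tests were chosen with earlier results of these data known. Of the marker lists, Trp63 had no row under that symbol. In RefSeq's GRCr8 annotation, used for names, neighbours and promoters only, 10 of the 31 genes overlap another gene. No 2 libraries of a group agreed within sampling noise (the smallest chi-square over its degrees of freedom was 54.1).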

Additional observations from a re-analysis of the deposited data

Results flagged for a closer look

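A library was flagged where it lay far from the other 3 of its group, with a gap to its neighbour that took up most of the group's range. Of 102 groups of 4 values examined 3 were flagged, where chance flags about 1 in 20. In LPS replicate 4 the level of Mvk was 14.23 CPM, where the remaining LPS libraries had 18.1 to 18.8 CPM. In LPS replicate 3 that of Cyp7b1 was 68.6 CPM, where the remaining ones had 16.7 to 23.3 CPM. The total of PBS replicate 4 was 33191039 counts, below the 39836415 to 40634384 of the other PBS libraries. Among the 62 groups of the 31 genes, 1 was flagged.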

How the results depend on the processing

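Lss and Pmvk were called under each of the 17 alternatives, and Idi1, Srebf1 and Acaca under 8, 11 and 13. Insig1 was gained under 2, Acly under 3 and Stard4 under 1, and the other 23 genes were called under none. The members called ran from 1 to 2 higher and from 1 to 4 lower with 1 library left out. Of all genes, 904 to 1385 were higher and 563 to 1199 lower with 1 library left out, the fewest without PBS replicate 2, and 752 and 750 lower without PBS replicate 3 and LPS replicate 3. DESeq2 called 2099 higher and 2089 lower, against 1529 and 1200 in edgeR. The cause of these shifts was not tested.

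Signs turned only in genes that were not called. With 1 library left out the log2 fold change ran from -0.14 to 0.22 for Fdps, -0.13 to 0.27 for Sqle, -0.034 to 0.56 for Tm7sf2, -0.18 to 0.19 for Msmo1, -0.099 to 0.24 for Hsd17b7, -0.059 to 0.13 for Ebp, -0.073 to 0.055 for Scap and -0.15 to 0.11 for Elovl6. Scap was 0.0022 with limma-voom and 0.0026 with the replicate block, and Msmo1 0.056 with quality weights. Without both PBS replicate 1 and LPS replicate 2, Tm7sf2 was -0.067, Msmo1 0.105 and Ebp -0.083.

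With the replicate block, 1 of the 31 was higher and 3 lower (all genes, 1151 and 845), and Srebf1 lost its call. The numbers are those of the sample titles (the library name of LPS replicate 4 carries another number), which do not say that they pair the samples. Deviations of same-numbered libraries correlated at -0.134, -0.181, -0.0867 and 0.208. Those of differently numbered libraries ran from -0.215 to 0.24, so these values cannot settle whether samples were paired. Depth limits none of the 31, and the spread between 4 libraries sets their intervals.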
